A study of Mus musculus with 24 samples.

Results

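The 10 genes described here encode SMAD proteins, which carry the transforming growth factor beta (TGF-beta) signal to the nucleus, and proteins that dampen that signal: Smad2, Smad3, Smad4, Smad6, Smad7, Ski, Skil, Pmepa1, Smurf1 and Smurf2. They were chosen by gene symbol, and all 10 were found, 1 row each, in each of the 3 deposited expression tables, which list 35695 gene symbols or identifiers in all. All 10 passed the filter on low values in every table, so none is left out below. The 24 RNA-seq libraries, made from poly(A)-enriched RNA, form 8 groups of 3. All came from mouse ovarian surface epithelial (mOSE) cells, the epithelium that covers the ovary, grown in culture.

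In the first experiment the cell line m1102 was grown as attached monolayers, untreated or with 10 ng/mL TGFB1 (transforming growth factor beta 1), or as spheroids in low-attachment plates, untreated or given 10 ng/mL TGFB1 for 4 days before low-attachment culture. How long the monolayers were treated is not given in the sources used here. In the second experiment m1102 cells carried a lentiviral construct for Snail, the transcription factor encoded by Snai1, or the WPI vector control. In the third, cells of a line harvested from mice with floxed Brca1 alleles received an adenovirus expressing Cre recombinase, which deletes the floxed sequence, or a GFP control adenovirus, so control and deleted cells share the floxed alleles. Each comparison within an experiment therefore rests on 1 cell line. The labels do not say whether the 3 libraries of a group came from separate cultures, so each p-value rests only on the spread among the sequenced libraries, which may be technical. The titles mark all 6 monolayer libraries of the first experiment, and none of the spheroid libraries, as re-analysed, so spheroid culture and the origin of the libraries cannot be told apart.

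In the canonical pathway, activated TGF-beta receptors phosphorylate SMAD2 and SMAD3, which join SMAD4, enter the nucleus and regulate transcription. SMAD6 and SMAD7 are inhibitory SMADs, SKI and SKIL (SnoN) are nuclear corepressors of SMAD complexes, PMEPA1 is a membrane protein that sequesters receptor-activated SMADs, and SMURF1 and SMURF2 are ubiquitin ligases that mark SMADs or receptors for degradation. Several of these inhibitors are themselves known transcriptional targets of the pathway, which makes them a negative feedback.

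Levels are in scaled TPM: the deposited values are named TPM, a length-normalised transcript abundance, but their columns do not sum to 1000000. A library-wise scaling by the authors is inferred from this and is not stated in the labels. On that reading, levels of different genes can be set side by side within an experiment. The column sums ran from 796668 to 1810667, read depth is unknown, and levels are not compared between the 3 tables, which may be scaled differently. A gene was called changed at a Benjamini-Hochberg adjusted p under 0.05 by limma over all genes of the comparison, on log2(scaled TPM + 1). Fold changes are on that scale and carry standard errors. Of 10 listed ovarian surface epithelial markers, the monolayers of m1102 were high in Msln, Krt7, Upk3b, Krt18 and Wt1. When untreated they had low Krt19 (1.61 scaled TPM on average) and Lgals7 (1.23), with Krt8 (0.189) and Lhx9 near 0 and Gata4 at 19.3. The summed level of that list was 1462 to 1538 in untreated monolayers, 744 to 1032 with TGFB1, 235 to 370 in untreated spheroids and 221 to 416 in TGFB1 spheroids. Against that sum, Gata4 (32.7) and Lhx9 (0.206, from 0.0246) were higher in untreated spheroids than in untreated monolayers, and the rest of the list was lower. Krt18 averaged 189 in TGFB1 spheroids, against 196 in untreated monolayers. Beside that list, 4 markers of ovarian stroma and fibroblasts summed to 1613 to 1763 in untreated monolayers and 1007 to 1049 with TGFB1. Their sum was 691 to 830 in untreated spheroids and 611 to 1260 in TGFB1 spheroids. In untreated monolayers it was mostly Dcn (1332 on average) and Col3a1 (337), with Pdgfra at 6.21 and Lum at 0.255. In untreated spheroids Dcn was lower, at 245, while Col3a1 (508) and Pdgfra (7.80) were higher. In TGFB1 spheroids Dcn was at 637 and Col3a1 at 183. The summed level of 4 endothelial markers was 1.0 to 1.2 in untreated monolayers and 25.7 to 52.4 in TGFB1 spheroids. Cdh5 made up nearly all of the latter, at 36.0 on average, while Pecam1 was at 1.56, Tie1 at 0.0964 and Kdr at 0.0124. Mitochondrial transcripts took 7.24%, 13.9% and 12.1% of the signal in TGFB1 spheroids 1, 2 and 3, and 6.60% to 8.68% in the other 9 libraries of that experiment. Spp1 alone took 4.09% to 7.92% of the signal in TGFB1 spheroids. These values moved with the comparisons below, and their part in the results was not tested. In bulk RNA, fewer cells of a type and less RNA per cell cannot be told apart.

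Promoter windows are shown for 4 of the 5 members with an entry in the sequence table, to set genes that rose with TGFB1 in spheroids (Ski and Smurf2) beside one that fell there (Smad3) and one that was low in every spheroid library (Smad6). Smurf1, the other member with an entry, also rose there; its window of 233 bases held 2 CAGAC on either strand and is not printed. Each is the RefSeq (GRCm38.p6) sequence just upstream of the annotated gene start, on the minus strand, 5′ to 3′, cut so that no transcribed base of the gene is included. The positions are chr4:155222593-155222785 for Ski, chr11:106920716-106920965 for Smurf2, chr9:63757995-63758244 for Smad3 and chr9:64022060-64022309 for Smad6. Capitals mark matches to letter runs that SMAD proteins are known to bind: CAGAC or its reverse complement GTCTG, the palindrome GTCTAGAC, and the GC-rich GGCGCC.
Ski: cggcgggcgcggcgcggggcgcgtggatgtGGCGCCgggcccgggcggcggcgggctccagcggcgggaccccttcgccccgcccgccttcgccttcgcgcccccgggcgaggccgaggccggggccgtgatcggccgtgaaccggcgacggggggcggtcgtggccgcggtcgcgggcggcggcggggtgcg
Smurf2: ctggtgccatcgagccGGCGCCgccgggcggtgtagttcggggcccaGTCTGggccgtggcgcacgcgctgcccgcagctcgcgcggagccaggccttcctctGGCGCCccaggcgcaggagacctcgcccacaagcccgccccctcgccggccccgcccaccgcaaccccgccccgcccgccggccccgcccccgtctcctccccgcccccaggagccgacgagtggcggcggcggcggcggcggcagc
Smad3: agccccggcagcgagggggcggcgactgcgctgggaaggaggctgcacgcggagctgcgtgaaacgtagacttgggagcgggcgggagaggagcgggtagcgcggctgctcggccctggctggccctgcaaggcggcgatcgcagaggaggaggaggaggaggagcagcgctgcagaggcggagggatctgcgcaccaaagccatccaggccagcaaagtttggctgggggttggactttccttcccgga
Smad6: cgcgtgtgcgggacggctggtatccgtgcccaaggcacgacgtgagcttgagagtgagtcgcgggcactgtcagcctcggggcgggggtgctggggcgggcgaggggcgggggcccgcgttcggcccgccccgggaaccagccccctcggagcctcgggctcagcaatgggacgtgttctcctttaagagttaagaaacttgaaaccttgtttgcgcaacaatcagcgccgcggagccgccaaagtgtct
The Ski window of 193 bases held 1 GGCGCC, and the Smurf2 window of 250 bases held 2 GGCGCC and 1 CAGAC read on the other strand. The Smad3 and Smad6 windows held none of these runs, and GTCTAGAC was in no window shown. Of 32851 windows of 250 bases, 42.2% held CAGAC on either strand, 9.59% held GGCGCC and 0.167% held GTCTAGAC. The 4 windows were 66.8% to 86.5% G or C, against a median of 52.4% over all windows, and the shares above were not matched for this. SMAD binding, and any link of these runs to the TGFB1 responses, was not tested. An annotated microRNA gene, Gm27322, overlaps the Smurf2 window and an exon of Smurf2 on the same strand. Of the members without a window here, Pmepa1 lies at chr2:173224458-173276533, Skil at chr3:31095058-31122577 and Smurf1 at chr5:144876495-144965847 (GRCm38).

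In untreated monolayers Pmepa1 had the highest level of the 10 genes (113 ± 5.39 scaled TPM, SD, n = 3). Smad6 (60.5 ± 3.12), Smad4 (57.6 ± 1.23) and Smad2 (48.9 ± 2.24) followed, with the ranges of Smad6 and Smad4 overlapping. Smurf2 (38.3 ± 4.23) and Smad7 (34.1 ± 4.04) also overlapped. Ski, Skil, Smurf1 and Smad3 lay lowest, between 18.7 and 23.0 on average, with each neighbouring pair overlapping. The receptor-activated SMADs were thus unequal: the Smad3 level was 0.383 ± 0.0346 of the Smad2 level. In untreated spheroids the order differed, with Smad4 highest (60.9 ± 2.10) and Smad6 lowest (6.95 ± 3.02).

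**Figure D1:**
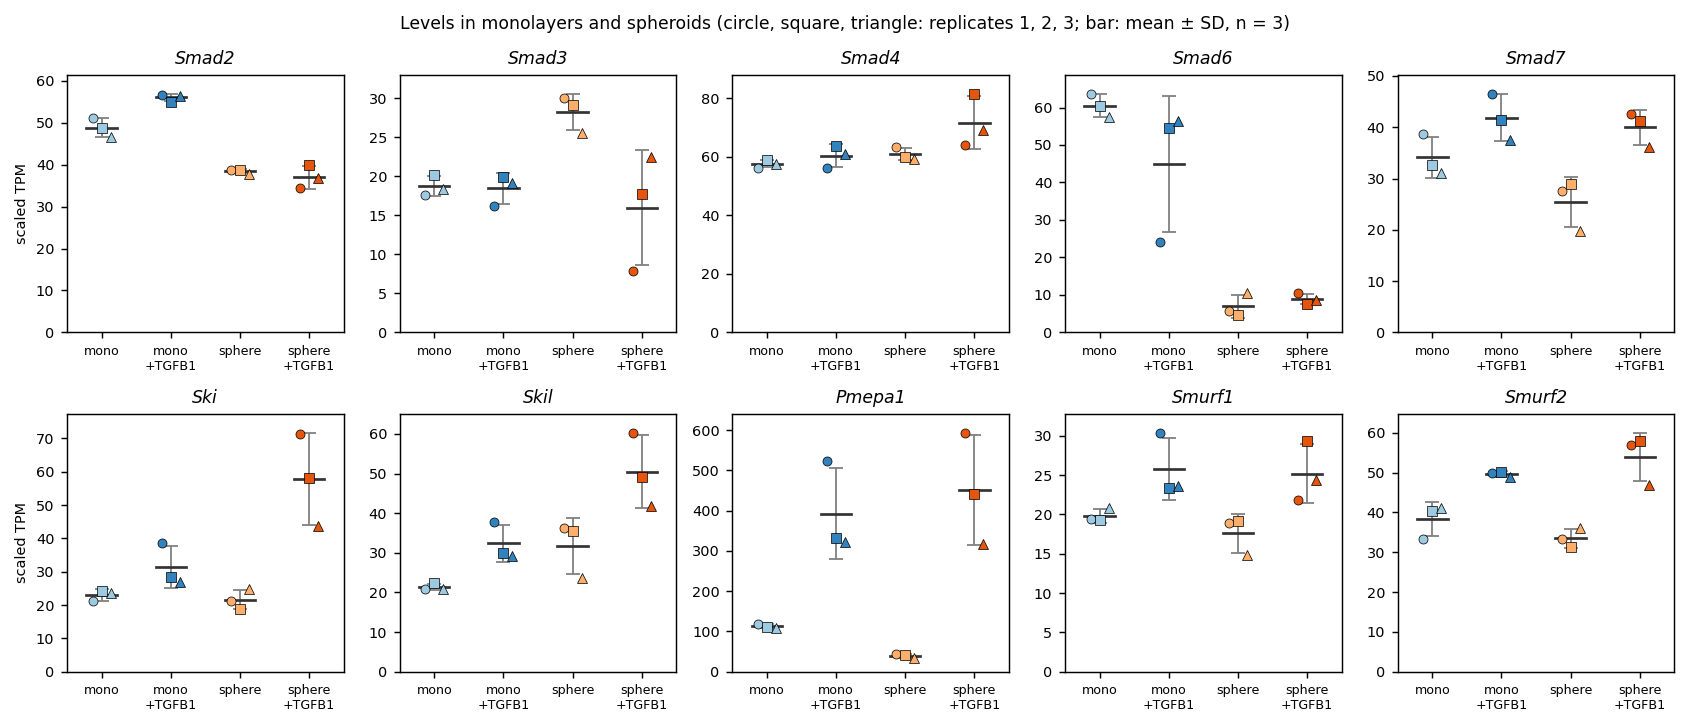
Scaled TPM of the 10 genes (y axis, from 0) in the 4 groups of the first experiment (x axis; mono, monolayer; sphere, spheroid). Points are libraries and bars are mean ± SD (n = 3). Pmepa1 lies between 318 and 593 in all 6 TGFB1 libraries, and Smad6 at or below 10.4 in all 6 spheroid libraries.

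Spheroid culture without TGFB1 was first compared with untreated monolayers. Smad6, Pmepa1, Smad2 and Smad7 were lower in spheroids, Skil was higher, and the other 5 genes were not called. Among all 13509 genes tested, 55.2% were called in this comparison (27.6% higher, 27.7% lower), so 5 of 10 is near the background share. The groups did not overlap for 8 of the 10 genes, against 65.3% of all genes. The median log2 fold change was -0.18 for the 10 genes and 0.01 for all genes tested.

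TGFB1 was then compared with no treatment within each culture. In monolayers Pmepa1, Skil and Smurf2 rose and none of the 10 fell, against calls for 16.9% of all genes (9.12% higher, 7.79% lower). In spheroids Pmepa1, Ski, Smurf2, Skil, Smad7 and Smurf1 rose and Smad3 fell, against calls for 35.6% of all genes (18.8% higher, 16.8% lower). With libraries scaled to equal sums, which moved the median of all genes by -0.16 in the spheroid comparison, 4 members rose and 2, Smad2 and Smad3, fell there. Of all genes called in that setting, 29.8% were higher, against 52.9% without that scaling. The groups did not overlap for 7 genes in monolayers and 8 in spheroids, against 47.5% and 43.9% of all genes. The median log2 fold change of the 10 genes was 0.32 in monolayers and 0.57 in spheroids, beside 0.01 and 0.00 for all genes tested. The spheroid and monolayer comparisons share no libraries with each other, but each shares its untreated libraries with the comparison of the cultures.

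**Figure D2:**
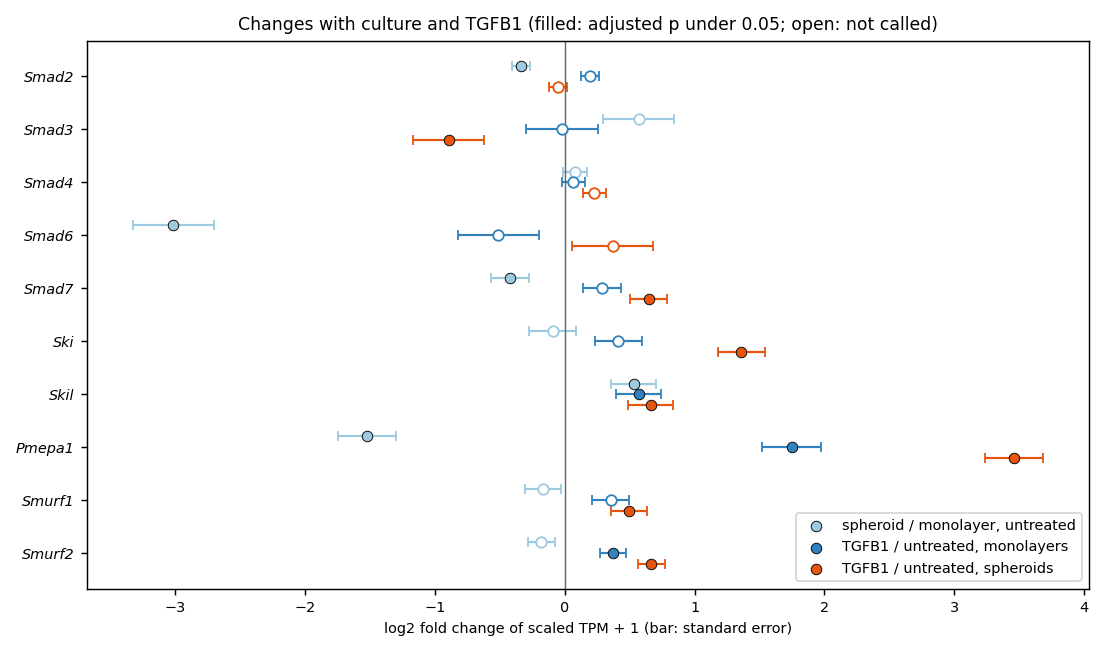
Log2 fold changes of scaled TPM + 1 (x axis, bars: standard error) for the 10 genes (y axis) in 3 comparisons of the first experiment. Filled points passed an adjusted p of 0.05 and open points did not; Pmepa1 moved furthest with TGFB1 (3.46 in spheroids) and Smad6 furthest with spheroid culture (-3.02).

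Smad2, a receptor-activated SMAD, stood at 51.2, 48.8 and 46.7 scaled TPM in untreated monolayers and at 38.8, 38.8 and 37.8 in untreated spheroids. With TGFB1 it stood at 56.7, 55.1 and 56.4 in monolayers and at 34.5, 39.9 and 36.8 in spheroids. Every spheroid library was below every monolayer library. The spheroid difference was -0.34 ± 0.07 without TGFB1 (limma, adjusted p = 0.00186) and -0.59 ± 0.07 with it (adjusted p = 4.31e-05). The TGFB1 difference was not called in monolayers (0.20 ± 0.07, adjusted p = 0.0815) or in spheroids (-0.06 ± 0.07, adjusted p = 0.567). With all libraries scaled to equal sums, Smad2 was called higher with TGFB1 in monolayers (0.24, adjusted p = 0.0312) and lower in spheroids (-0.24, adjusted p = 0.0142).

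Smad3, the other receptor-activated SMAD, stood at 17.7, 20.1 and 18.3 in untreated monolayers and at 16.2, 20.0 and 19.1 with TGFB1. Untreated spheroids held 30.0, 29.1 and 25.6, and TGFB1 spheroids 7.88, 17.7 and 22.4. Untreated spheroids were above all other libraries, and TGFB1 spheroid 1 was the lowest of the 12. Smad3 fell with TGFB1 in spheroids by 0.89 ± 0.27 on the log2 scale (limma, adjusted p = 0.0267). This call was lost without untreated spheroid 1 (adjusted p = 0.0736) or 2 (adjusted p = 0.0691), without the filter on low values (adjusted p = 0.0568), and when the 6 spheroid libraries were fitted alone (adjusted p = 0.110). The higher level in untreated spheroids was not called (0.57 ± 0.27, adjusted p = 0.10), although it was when the 6 untreated libraries were fitted alone (adjusted p = 0.00228). The interaction, the TGFB1 difference in spheroids minus that in monolayers, was not called (-0.87 ± 0.39, adjusted p = 0.155), and became so without TGFB1 spheroid 3 (-1.16, adjusted p = 0.0382).

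Smad4, the SMAD shared by the TGF-beta and bone morphogenetic protein (BMP) branches, ran from 56.2 to 81.6 scaled TPM across these 12 libraries. Its libraries ran from 56.4 to 58.8 in untreated monolayers, from 56.2 to 63.8 in TGFB1 monolayers and from 59.4 to 63.3 in untreated spheroids. TGFB1 spheroids held 64.2, 81.6 and 69.3, each above all other libraries. The difference between spheroids and monolayers under TGFB1 was called (0.24 ± 0.09, limma, adjusted p = 0.0427), whereas the TGFB1 difference in spheroids was not (0.23 ± 0.09, adjusted p = 0.0708). The first call was lost with TGFB1 monolayer 1 (adjusted p = 0.134) or 3 (adjusted p = 0.0805) left out, and likewise TGFB1 spheroid 2 (adjusted p = 0.159) or 3 (adjusted p = 0.0620). With libraries scaled to equal sums it shrank to 0.07 (adjusted p = 0.477). Without the filter on low values it was lost too (adjusted p = 0.0557), as when the 6 TGFB1 libraries were fitted alone (adjusted p = 0.116). The TGFB1 difference in spheroids became called without TGFB1 spheroid 1 (0.30, adjusted p = 0.0244).

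Smad6, an inhibitory SMAD best known for blocking BMP signalling, stood at 63.7, 60.4 and 57.4 scaled TPM in untreated monolayers. Untreated spheroids held 5.71, 4.74 and 10.4, and TGFB1 spheroids 10.4, 7.63 and 8.59. Every spheroid library lay below every monolayer library. Smad6 was 8.08-fold lower in untreated spheroids than in untreated monolayers (log2 fold change -3.02 ± 0.31, limma, adjusted p = 1.71e-05) and 4.39-fold lower under TGFB1 (-2.14 ± 0.31, adjusted p = 0.000201). TGFB1 monolayers held 24.1, 54.6 and 56.3, so that replicate 1 stood apart from the other two. The TGFB1 difference was not called in monolayers (-0.51 ± 0.31, adjusted p = 0.302) or in spheroids (0.37 ± 0.31, adjusted p = 0.387). Without TGFB1 monolayer 1 the monolayer difference was -0.12 and still not called.

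Smad7, the inhibitory SMAD that acts on TGF-beta receptors and is a known early target of the pathway, stood at 38.7, 32.6 and 31.1 in untreated monolayers and at 46.6, 41.5 and 37.5 with TGFB1. Untreated spheroids held 27.5, 28.9 and 19.9, and TGFB1 spheroids 42.5, 41.3 and 36.1. In spheroids the treated and untreated libraries did not overlap, whereas in monolayers they did. Smad7 rose with TGFB1 in spheroids by 0.65 ± 0.14 on the log2 scale (limma, adjusted p = 0.00576). The monolayer difference was not called (0.29 ± 0.14, adjusted p = 0.205), and the interaction was not either (0.36 ± 0.20, adjusted p = 0.268), so the cultures were not shown to differ. Smad7 was lower in untreated spheroids than in untreated monolayers (-0.42 ± 0.14, adjusted p = 0.0284). That call was lost without untreated monolayer 1 (adjusted p = 0.110) or untreated spheroid 3 (adjusted p = 0.0926). It was also lost without the filter on low values (adjusted p = 0.0511), with equal sums (adjusted p = 0.0565) and with library weights (adjusted p = 0.0538). Fitting the 6 untreated libraries alone ended it too (adjusted p = 0.0557), as did averaging untreated monolayers 1 and 2 (adjusted p = 0.0682).

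The inhibitory SMADs thus differed in how they moved. The ratio of the Smad7 to the Smad6 level was 0.608, 0.539 and 0.541 in untreated monolayers, and 4.83, 6.10 and 1.91 in untreated spheroids. It was 4.09, 5.42 and 4.20 in TGFB1 spheroids. Every monolayer library except TGFB1 monolayer 1, at 1.93, had more Smad6 than Smad7 transcript, and every spheroid library had more Smad7. The ratio of Smad3 to Smad2 was 0.676 to 0.774 in untreated spheroids, above the range of every other group of the experiment. A ratio within a library shows only that the paired genes changed unequally.

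**Figure D3:**
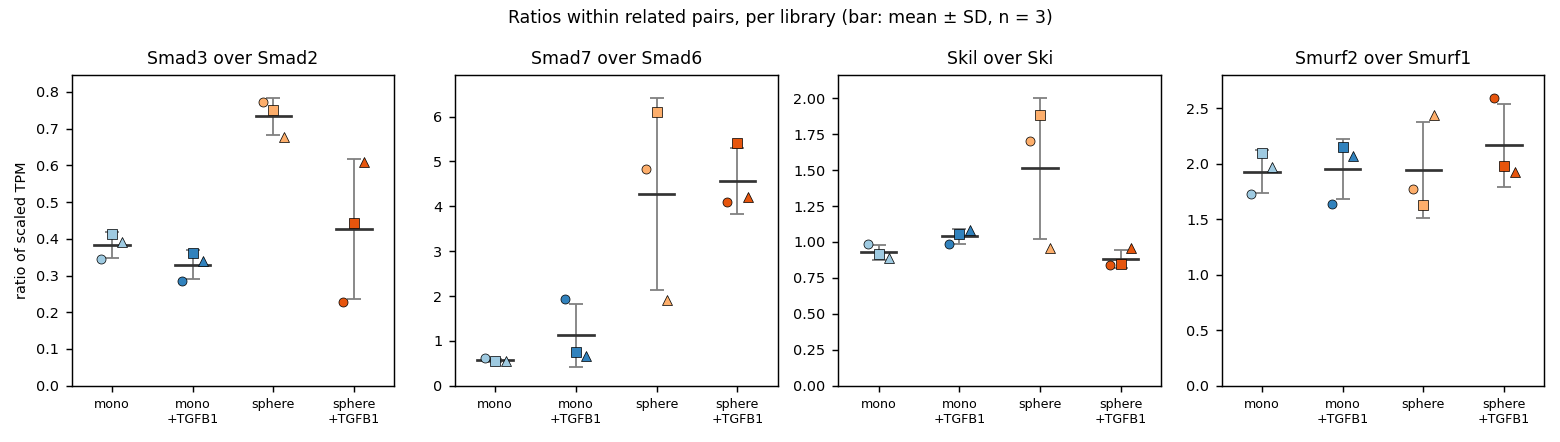
Ratio of scaled TPM within 4 pairs of related genes (y axis, from 0) in the 4 groups of the first experiment (x axis). Points are libraries and bars are mean ± SD (n = 3). Smad7 over Smad6 is 0.539 to 1.93 in monolayers and 1.91 to 6.10 in spheroids, while Smurf2 over Smurf1 stays between 1.63 and 2.60.

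Ski, whose product represses transcription by binding SMAD complexes, stood at 21.1, 24.4 and 23.6 scaled TPM in untreated monolayers and at 38.5, 28.4 and 26.9 with TGFB1. Untreated spheroids held 21.3, 18.8 and 24.7, and TGFB1 spheroids 71.5, 58.2 and 43.8. Treated libraries were above untreated ones in both cultures, and the TGFB1 spheroids were the highest of all. Ski rose 2.57-fold with TGFB1 in spheroids (log2 fold change 1.36 ± 0.18, limma, adjusted p = 0.000324). The monolayer difference was not called (0.41 ± 0.18, adjusted p = 0.148). The interaction was called (0.95 ± 0.26, adjusted p = 0.0295), as it was for 2 of the 10 genes, against 15.8% of all genes (8.72% higher, 7.11% lower). It was lost, with adjusted p of 0.0618 to 0.0728, without any of 7 libraries: untreated monolayers 2 and 3, TGFB1 monolayers 2 and 3, untreated spheroids 1 and 2, and TGFB1 spheroid 2. It was also lost with libraries scaled to equal sums (0.73, adjusted p = 0.0815), where Smad2 gained one (-0.47, adjusted p = 0.00590), so that the 2 genes then called were Pmepa1 and Smad2. Without the filter on low values the Ski interaction was lost as well (adjusted p = 0.0597). Under TGFB1, Ski was higher in spheroids than in monolayers (0.85 ± 0.18, adjusted p = 0.00230).

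Skil, which encodes the related corepressor SnoN, stood at 20.8, 22.2 and 20.9 in untreated monolayers and at 37.9, 30.0 and 29.2 with TGFB1. Untreated spheroids held 36.2, 35.5 and 23.6, and TGFB1 spheroids 60.2, 49.2 and 41.9. Treated libraries were above untreated ones in each culture, and untreated spheroids were above untreated monolayers. Skil rose with TGFB1 by 0.57 ± 0.17 in monolayers (limma, adjusted p = 0.0467) and by 0.66 ± 0.17 in spheroids (adjusted p = 0.0135), with an interaction of 0.09 ± 0.25 (adjusted p = 0.843). The monolayer call was lost without any of the 6 libraries compared (adjusted p = 0.0651 to 0.170). Skil was higher in spheroids than in monolayers, both untreated (0.53 ± 0.17, adjusted p = 0.0236) and with TGFB1 (0.62 ± 0.17, adjusted p = 0.0117). The untreated call was lost without untreated monolayer 1 (adjusted p = 0.0625) or 3 (adjusted p = 0.0626), or untreated spheroid 1 (adjusted p = 0.0917) or 2 (adjusted p = 0.0870). With libraries scaled to equal sums, the TGFB1 call in spheroids was lost (0.48, adjusted p = 0.0624), and so was the difference between the cultures under TGFB1 (0.45, adjusted p = 0.0614). The TGFB1 call in spheroids was also lost when the 6 spheroid libraries were fitted alone (adjusted p = 0.0640).

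Pmepa1, whose product removes receptor-activated SMADs from the receptor complex, had the largest TGFB1 response of the 10 genes in either culture. It stood at 119, 112 and 109 scaled TPM in untreated monolayers and at 523, 332 and 322 with TGFB1. Untreated spheroids held 43.3, 40.3 and 33.4, and TGFB1 spheroids 593, 443 and 318. The 4 groups separated into low untreated spheroids, intermediate untreated monolayers and high TGFB1 libraries, where the cultures overlapped. Pmepa1 rose with TGFB1 by 1.75 ± 0.23 on the log2 scale in monolayers (limma, adjusted p = 0.000754) and 11.0-fold (3.46 ± 0.23, adjusted p = 2.2e-06) in spheroids. The interaction was 1.71 ± 0.32 (adjusted p = 0.00527). It came with a lower starting level, since untreated spheroids were 2.87-fold below untreated monolayers (-1.52 ± 0.23, adjusted p = 0.000203), while under TGFB1 the cultures differed by 0.19 ± 0.23 (adjusted p = 0.497).

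Smurf1, a ubiquitin ligase that acts on BMP SMADs and, with SMAD7, on TGF-beta receptors, stood at 19.4, 19.2 and 20.9 in untreated monolayers and at 30.4, 23.4 and 23.6 with TGFB1. Untreated spheroids held 18.9, 19.2 and 14.8, and TGFB1 spheroids 21.9, 29.3 and 24.4. Treated and untreated libraries did not overlap in either culture. The rise with TGFB1 was called in spheroids (0.49 ± 0.14, limma, adjusted p = 0.0186) and not in monolayers (0.35 ± 0.14, adjusted p = 0.111), with an interaction of 0.14 ± 0.20 (adjusted p = 0.683). The spheroid call was lost without untreated spheroid 3 (adjusted p = 0.0564) or TGFB1 spheroid 2 (adjusted p = 0.0806), and with equal sums (0.31, adjusted p = 0.0684). It was also lost when the 6 spheroid libraries were fitted alone (adjusted p = 0.0659).

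Smurf2, the related ubiquitin ligase recruited to receptors by SMAD7, stood at 33.4, 40.4 and 41.1 in untreated monolayers and at 49.8, 50.2 and 48.8 with TGFB1. Untreated spheroids held 33.4, 31.2 and 36.0, and TGFB1 spheroids 56.8, 57.9 and 46.9. Again no treated library reached down to an untreated library of its culture. Smurf2 rose with TGFB1 by 0.37 ± 0.10 in monolayers (limma, adjusted p = 0.0327) and by 0.66 ± 0.10 in spheroids (adjusted p = 0.000811). The monolayer call was lost without any of the 6 libraries compared (adjusted p = 0.0521 to 0.120), and the interaction was not called (0.29 ± 0.15, adjusted p = 0.204). The lower level of Smurf2 in untreated spheroids was not called (-0.18 ± 0.10, adjusted p = 0.157), and was without untreated monolayer 1 (-0.28, adjusted p = 0.0487). Smurf1 and Smurf2 kept a similar ratio, with Smurf2 at 1.93 to 2.17 times the Smurf1 level on average in the 4 groups.

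Between the TGFB1 groups, 5 of the 10 genes differed between spheroids and monolayers, where 51.9% of all genes did (25.3% higher, 26.5% lower). The spheroids had TGFB1 before low-attachment culture, so culture and TGFB1 schedule cannot be told apart. Skil, Ski and Smad4 were higher in spheroids, and Smad2 and Smad6 were lower. The feedback genes Pmepa1, Smad7, Smurf1 and Smurf2 were not called (log2 fold changes of -0.06 to 0.19), and their treated libraries overlapped between the cultures.

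Across the 12 libraries, which share their 4 groups and any scaling by the authors, Pmepa1 ran most closely with Smurf2 (r = 0.921 on the log2 scale) and Smad7 (r = 0.899) among the other members. Ski ran closest to Smurf2 (r = 0.865) and Smad2 to Smad6 (r = 0.825), while Smad3 ran against Pmepa1 (r = -0.733). Among all tested genes, those with the pattern most like that of Pmepa1 were Sulf2 (r = 0.996), Ttc39b (r = 0.976) and Pxdn (r = 0.975). Galnt7 (r = 0.979), Usp47 (r = 0.977) and Slc26a2 (r = 0.976) were most like Skil, and Arl8a (r = 0.965), Efna2 (r = 0.946) and Ube3c (r = 0.941) most like Smad7. These coefficients describe 12 points that fall into 4 groups.

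The surrounding pathway was read from 6 lists of 59 genes in all, whose counts stand beside the shares of all genes called: 27.6% higher and 27.7% lower between untreated cultures, 9.12% and 7.79% with TGFB1 in monolayers, and 18.8% and 16.8% with TGFB1 in spheroids. Of the other SMADs, which carry BMP signals, all 3 changed in untreated spheroids: Smad9 fell by 3.12 ± 0.28 on the log2 scale (limma, adjusted p = 6.59e-06), to 0.218 scaled TPM on average from 9.51. Smad1 fell by 0.62 ± 0.16 (adjusted p = 0.00613), and Smad5 was higher (0.83 ± 0.08, adjusted p = 1.18e-05). Among targets of TGF-beta and SMADs, Id3, a classical BMP target, fell by 5.36 ± 0.38 (adjusted p = 1.24e-06), to 6.11 from 291, in the same comparison. In all, 5 of 14 tested targets were higher and 5 lower there, where 55.2% of all genes were called. Smad6, Smad9 and Id3 were low in untreated spheroids while Smad5 was higher, and a change in BMP signalling was not tested. With TGFB1 in spheroids Id3 rose by 2.08 ± 0.38 (adjusted p = 0.00194) to 30.6, and Smad1 rose by 0.84 ± 0.16 (adjusted p = 0.00220). Smad5 fell there by 0.36 ± 0.08 (adjusted p = 0.00603), and Smad9 was not called (0.26 ± 0.28, adjusted p = 0.495), nor was Smad6.

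Among target genes with TGFB1 in monolayers, 7 of 14 rose and none fell, where 16.9% of all genes were called. Col1a1, a fibrillar collagen chain, rose by 4.34 ± 0.18 (limma, adjusted p = 7.82e-07). In spheroids, where 35.6% of all genes were called, 6 of 14 rose with TGFB1 and Tgfbi fell, by 2.14 ± 0.36 (adjusted p = 0.00117). Col1a1 rose there too, by 2.30 ± 0.18 (adjusted p = 1.07e-05), but only to 7.27 scaled TPM, against 157 in TGFB1 monolayers.

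Of the 8 ligands and receptors, 3 were higher and 2 lower in untreated spheroids than in monolayers, near the 55.2% of all genes called. Tgfbr1, the type I receptor, rose by 2.64 ± 0.18 (limma, adjusted p = 9.41e-07), from 20.0 to 135 scaled TPM, and Tgfb1, the ligand, by 1.42 ± 0.13 (adjusted p = 9.07e-06), from 36.6 to 99.8. With TGFB1 in spheroids 3 rose and 3 fell, beside 35.6% of all genes: the Tgfb1 transcript rose by a further 2.96 ± 0.13 (adjusted p = 1.69e-07), to 797, and Tgfbr3, the co-receptor betaglycan, fell by 2.75 ± 0.59 (adjusted p = 0.00476). In monolayers Tgfbr3 was the only gene of this list called, with Tgfb1 at 39.4 under TGFB1. That Tgfbr3 call (-2.39 ± 0.59, adjusted p = 0.0198) was lost without any of 4 libraries, untreated monolayers 1, 2 and 3 and TGFB1 monolayer 1 (adjusted p = 0.0565 to 0.0854).

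Of 10 receptor-level inhibitors and phosphatases, 3 rose and 3 fell with TGFB1 in monolayers, and 5 rose and 1 fell in spheroids, beside 16.9% and 35.6% of all genes called. Ldlrad4, which like PMEPA1 sequesters receptor-activated SMADs, rose in both, by 1.47 ± 0.18 (limma, adjusted p = 0.000635) and 1.23 ± 0.18 (adjusted p = 0.000635). Of 11 other ubiquitin ligases and deubiquitinases, 1 rose with TGFB1 in monolayers, and 3 rose and 2 fell in spheroids, beside the same shares of all genes. Wwp2, a ligase of SMADs, rose by 1.10 ± 0.10 in spheroids (adjusted p = 3.09e-05), from 32.9 to 71.7 scaled TPM. Of 10 tested nuclear corepressors and coactivators, only Tgif1, a SMAD corepressor, rose in monolayers (0.61 ± 0.16, adjusted p = 0.0227). Omitting untreated monolayer 1 (adjusted p = 0.0869) or 3 (adjusted p = 0.0785) ended that call, as did omitting TGFB1 monolayer 1 (adjusted p = 0.0947) or 2 (adjusted p = 0.0546). Tgif1 also rose in spheroids (0.88 ± 0.16, adjusted p = 0.00172), where 2 of the list rose and 2 fell, near the 35.6% of all genes called.

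In the Snail experiment, Snai1 rose from 11.2 ± 2.15 to 207 ± 22.8 scaled TPM (SD, n = 3), so the libraries match their labels. None of the 10 genes passed the test, by limma, where 1.72% of all 12240 genes tested did (0.572% higher, 1.14% lower). Pmepa1 stood at 142, 153 and 135 with the vector and at 108, 113 and 123 with Snail, without overlap (log2 fold change -0.32 ± 0.07, adjusted p = 0.0840). In the authors' deposited table the q-value of Pmepa1 was 0.00413, the only q-value under 0.05 among the 10 genes. Smad2 stood at 57.2, 55.0 and 53.1 with the vector and at 65.7, 61.6 and 61.0 with Snail, also without overlap (0.19 ± 0.06, adjusted p = 0.188). The other 8 genes overlapped between the groups, and 20.6% of all genes did not. Skil was 25.4 to 37.9 with the vector and 23.8 to 36.2 with Snail. The median log2 fold change was -0.03 for the 10 genes and 0.01 for all genes, and no gene of the 6 pathway lists was called.

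In the BRCA1 experiment the Brca1 transcript was at 6.85 ± 3.75 scaled TPM in libraries labelled as deleted and 6.75 ± 4.84 in the GFP controls (SD, n = 3; limma, adjusted p = 0.904). The transcript level therefore does not check the label, and reads by exon were not used here. GFP control 2 stood apart from the other 2 controls (r = 0.917 with control 1 and 0.866 with control 3 over the tested genes, against 0.979 between controls 1 and 3). By column sum, controls 1 and 3 stood apart instead, at 1217651 and 1810667. Control 2 was at 796668 and the libraries labelled as deleted at 819962 to 843146. Mitochondrial transcripts took 6.83%, 8.75% and 15.3% of the signal in the 3 controls and 10.5% to 12.7% in the libraries labelled as deleted, and the part of this in the results was not tested. None of the 10 genes was called, where 14.3% of all 12775 genes were (9.04% higher, 5.27% lower). The median log2 fold change was 0.38 for the 10 genes and 0.17 for all genes, and scaling to equal sums moved the latter by 0.46.

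Smad4 stood at 55.8, 55.3 and 53.1 in the libraries labelled as deleted and at 23.7, 51.6 and 18.6 in the controls, the only member whose groups did not overlap, against 44.9% of all genes (log2 fold change 0.92 ± 0.37, limma, adjusted p = 0.108). Skil stood at 34.1, 24.8 and 48.2 against 7.44, 36.6 and 4.10, and Smurf2 at 32.0, 28.4 and 32.1 against 10.0, 40.7 and 12.5. In each of these 3 genes control 2 lay above the other 2 controls, near the level in the libraries labelled as deleted. Without control 2, 7 of the 10 genes were called, all higher: Skil (2.43, adjusted p = 0.000720), Smurf2 (1.38, adjusted p = 0.000577), Smad4 (1.34, adjusted p = 0.000551), Smad3, Smad2, Ski and Smad6. In that fit 66.2% of all genes were called, 8295 genes. It set the libraries labelled as deleted against controls 1 and 3 alone, the controls with the higher column sums. The ratio of Smurf2 to Smurf1 was 2.79 to 3.23 in the libraries labelled as deleted and 0.931 to 1.76 in the controls. That of Skil to Ski was 0.945 to 1.85 against 0.289 to 0.861. The ratios of Smad3 to Smad2 and of Smad7 to Smad6 overlapped between the groups. Differences in these ratios were not tested. Pmepa1 was spread in the libraries labelled as deleted, at 62.6, 24.0 and 135 against 54.5, 84.9 and 72.3 in the controls. Of the 59 listed pathway genes, not all of them tested, 4 were called, beside 14.3% of all genes tested. Cdkn1a, a cell-cycle inhibitor, was lower by the largest margin (-1.92 ± 0.21, limma, adjusted p = 0.00324). That call was lost without replicate 1 of the libraries labelled as deleted (adjusted p = 0.0622). Fkbp1a and Id3 were also called lower, and Runx1 higher. Without the filter on low values these calls were lost (adjusted p = 0.0691, 0.0659 and 0.0900 in that order), as in several other settings.

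**Figure D4:**
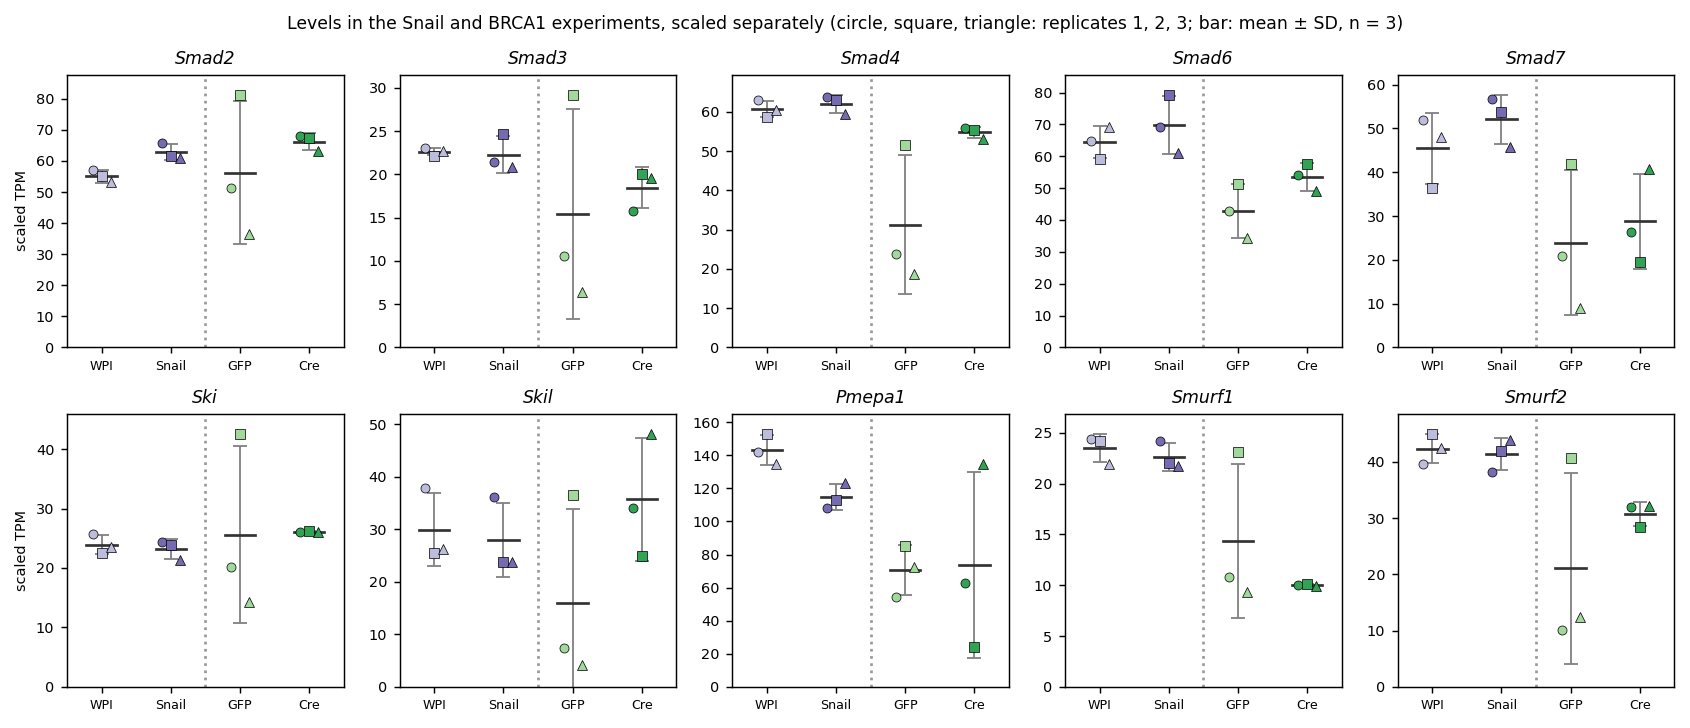
Scaled TPM of the 10 genes (y axis, from 0) with the WPI vector or Snail, and, right of the dotted line, in GFP controls or libraries labelled as deleted (Cre). Points are libraries and bars are mean ± SD (n = 3, cut off at 0). The experiments may be scaled differently, so levels are not compared between them. GFP control 2 (square) lies apart for Smad4 (51.6 against 23.7 and 18.6) and Skil (36.6 against 7.44 and 4.10).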

How the data were processed

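RNA-seq values of 24 libraries were taken from 3 tables. Per the submitters' processing notes, the authors used kallisto 0.44.0 and sleuth 0.30.0 on GRCm38. The deposited signal per gene is named as TPM, but its columns do not sum to 1000000, so it is called scaled TPM. The authors' deposited result tables give p-values, q-values and natural log coefficients; in the first experiment their p-value covers all model terms at once. Coefficients were divided by the natural log of 2. Counts and depth were not used here.

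Genes that reached a scaled TPM of 1 in 3 or more libraries of a table were fitted by limma 3.58.1 under R 4.3.3 (lmFit, eBayes with a trend, two-sided) on log2(scaled TPM + 1), with a mean per group. The 12 libraries of the first experiment were fitted together. The design assumed unscaled TPM; the same test was used for scaled TPM. It was also run on simulated data with independent noise in each gene. Those data held no library-wise scaling shift and no outlying library, so they do not show how the test handles either. Figures and tables used Python 3.11.15, pandas 2.3.3, numpy 2.4.6 and matplotlib 3.10.9. Gene positions come from GENCODE M21 (GRCm38), where 98.1% to 98.2% of the identifiers matched, and promoters from RefSeq GRCm38.p6.

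The members and lists were chosen with earlier results of these data known. All members are described; of a pathway list at most 4 called genes of the largest change were named. Alternatives were another pseudocount, no filter, other scalings, a replicate block, library weights, fewer libraries and, chosen after seeing the data, untreated monolayers 1 and 2 averaged, since their labels cite 1 earlier sample.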

Additional observations from a re-analysis of the deposited data

Results flagged for a closer look

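The TGFB1 difference of Pmepa1 was larger in spheroids than in monolayers by 1.71 ± 0.32 on the log2 scale (limma interaction, adjusted p = 0.00527), with treated libraries above untreated ones in both cultures. For Ski the difference between the cultures was 0.95 ± 0.26 (limma interaction, adjusted p = 0.0295), and it passed the test in 5 of 12 fits that left out 1 library. The Ski call was lost with libraries scaled to equal sums (0.73, adjusted p = 0.0815), where Smad2 gained one (-0.47, adjusted p = 0.00590). For each of these interactions, culture and TGFB1 schedule cannot be told apart.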

How the results depend on the processing

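Of 70 results for single members, 22 were called; 12 of these stayed called in every setting, 10 were lost in at least 1, and none reversed. Of the 48 that were not called, 19 gained a call in at least 1 setting. Those that stayed were Smad2, Smad6 and Pmepa1 between untreated cultures, Pmepa1 with TGFB1 in both cultures and in the interaction, Smad7, Ski and Smurf2 with TGFB1 in spheroids, and Smad2, Smad6 and Ski between cultures under TGFB1. Read depth is unknown, so it sets no limit that can be stated.

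With untreated monolayers 1 and 2 averaged, 3 members rather than 5 were called between untreated cultures, 1 rather than 3 with TGFB1 in monolayers (1307 of all genes rather than 2284), and 1 rather than 2 in the interaction. Counts of all genes that are not given for a setting, here and below, stayed within 1.5-fold of those in the results above. Without the filter, 1 member was called with TGFB1 in monolayers and 1 in the interaction, with 54 rather than 210 genes for Snail and 1091 rather than 1828 for BRCA1. With library weights, 8 members and 6431 genes were called with TGFB1 in monolayers, 4 members and 4385 rather than 2138 genes in the interaction, and 8 members and 11536 genes for BRCA1. With only the 6 libraries compared, 3771 genes were called with TGFB1 in monolayers, and 2787 rather than 4810 genes and 4 rather than 7 members in spheroids.

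Scaling to equal sums left 3 rather than 5 members between cultures under TGFB1 and 812 genes for BRCA1. It moved the median of all genes by -0.16 with TGFB1 in spheroids, -0.15 between cultures under TGFB1, -0.20 in the interaction and 0.46 for BRCA1. The share of higher among called genes became 29.8% rather than 52.9%, 33.2% rather than 48.9%, 27.7% rather than 55.1% and 79.4% rather than 63.2%. The median ratio moved the BRCA1 median by -0.18 (53.0% higher).

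Same-numbered libraries did not as a rule deviate together (r = -0.32 to 0.331, against -0.307 to 0.368 for unlike numbers). The value of 0.331 was for vector 1 with Snail 1, with -0.0149 and -0.0783 for numbers 2 and 3. Untreated and TGFB1 monolayers had 0.186, 0.137 and -0.0161 for numbers 1, 2 and 3. A replicate block gave 16 genes for Snail and 433 for BRCA1; for members it ended only the Smurf2 call with TGFB1 in monolayers (adjusted p = 0.0593).

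Leaving out 1 library gave these ranges of genes and members: between untreated cultures 6386 to 7515 and 4 to 5, TGFB1 in monolayers 1220 to 1715 and 1 to 1, TGFB1 in spheroids 3095 to 4816 and 6 to 8, between cultures under TGFB1 6019 to 6743 and 4 to 5, interaction 1307 to 2658 and 1 to 3, Snail 23 to 74 and 0 to 0, and BRCA1 57 to 8295 and 0 to 7, with the highest without GFP control 2.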
